A study of Mus musculus with 9 samples.

Results

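HC11-ΔSAP cells were set directly against HC11-mutB1 cells, 3 arrays against 3, without the HC11-FL strain. A probeset was a member of this comparison when its mean log2 level over the 6 arrays was at least 4, which held for 20269 of the 34760 probesets on the array. HC11 is a line of mammary epithelial cells from mid-pregnant BALB/c mice. The arrayed strains carry a stably transfected fusion of Mkl1 with red fluorescent protein (RFP), selected with Geneticin and sorted for red cells. In HC11-mutB1 the fusion has alanine in place of residues of the B1 region, through which Mkl1 contacts SRF. In HC11-ΔSAP the SAP domain is deleted. HC11-FL, with the full-length fusion, supplies 3 further arrays, whose levels are given beside the others as a description. All cultures had been in medium with 0.03% FCS and no EGF for 48 h. Each construct is 1 sorted strain and no vector strain was arrayed, so a difference made by the construct and one between strains cannot be told apart. The labels do not say whether the arrays of a strain came from separate cultures, and p-values measure only the spread between arrays.

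Mkl1 (Mrtfa) is a coactivator that moves between cytoplasm and nucleus with the state of actin and drives genes of the cytoskeleton through SRF. SRF binds the CArG box. The SAP domain is a fold found in nuclear proteins that bind DNA rich in A and T. The fusion in each mutant strain lacks 1 of these contacts and keeps the other, while the cell's own Mkl1 gene is still present. The comparison asks which genes tell a strain with one mutant fusion from a strain with the other.

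The Mkl1 probeset read 9.89, 9.83 and 9.76 on the HC11-mutB1 arrays and 9.55, 9.47 and 9.41 on the HC11-ΔSAP arrays (log2 levels). The strains did not overlap, but the difference of -0.35 (SE 0.060) missed the threshold (limma, adjusted p = 0.015). The probeset does not separate the fusion from the endogenous gene. Mkl2 (Mrtfb) differed by 0.05 (adjusted p = 0.62 in limma) and Srf by 0.07 (adjusted p = 0.45 in limma), and in both genes the arrays of the strains overlapped. Myocd, the founding member of the family, lay at 3.14 and 3.11, under the expression minimum.

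The filters were: an adjusted p not above 0.01 in limma, a fold not under 2 and the expression minimum. HC11-ΔSAP cells were lower in 343 probesets (1.69%) that met them and higher in 230 (1.13%). With 1 probeset per gene, 296 of 13128 expressed genes were lower (2.25%) and 207 higher (1.58%). Without the fold minimum the counts were 1088 genes lower (8.29%) and 992 higher (7.56%). All 503 genes that passed had every array of one strain above every array of the other, as had 24.6% of all expressed genes in the lower and 26.4% in the higher direction. The genes lower in HC11-ΔSAP had a median fold of 2.69 and 46 of them reached 4-fold. The genes higher in HC11-ΔSAP had a median fold of 2.58 and 41 reached 4-fold, but their range as measured was wider, up to 32.6-fold against 8.49-fold. Of the higher genes, 23 had a mean under 4 in HC11-mutB1 cells, and of the lower genes 11 had a mean under 4 in HC11-ΔSAP cells. A fall or a rise is that of HC11-ΔSAP against HC11-mutB1, wherever HC11-FL lay. The HC11-FL mean was between those of the 2 strains in 225 of the 296 lower and 120 of the 207 higher genes. Over all expressed genes the median log2 difference (HC11-ΔSAP minus HC11-mutB1) was 0.02 and the median size of a difference 0.134.

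**Figure D1:**
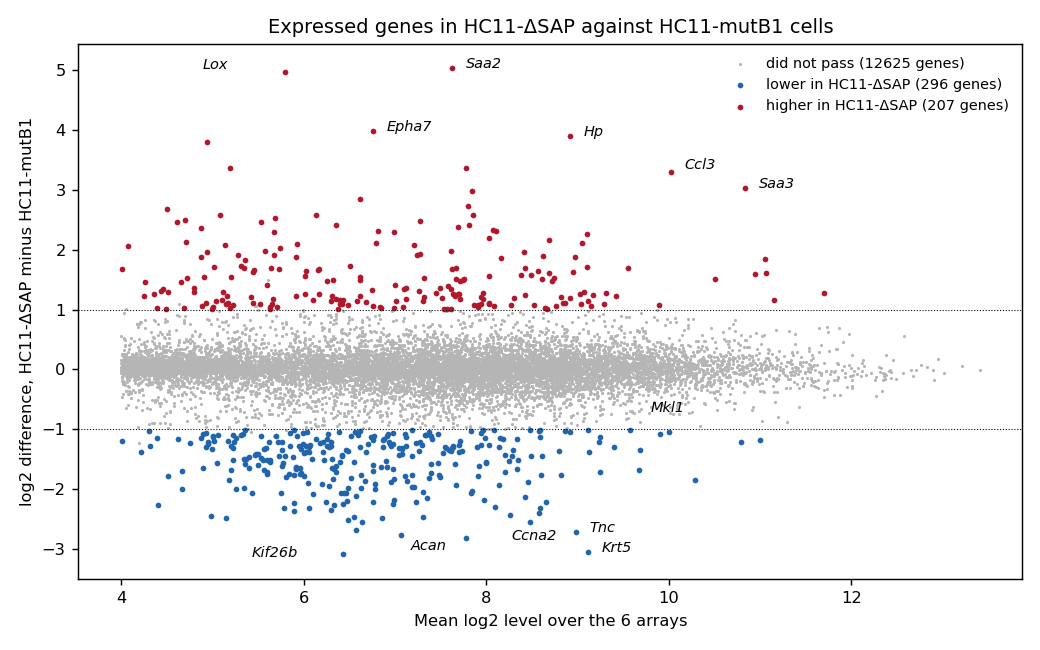
The log2 difference between the strains (HC11-ΔSAP minus HC11-mutB1) against the mean log2 level over the 6 arrays, for 13128 expressed genes. Blue and red points are the 296 genes that passed as lower and the 207 that passed as higher in HC11-ΔSAP cells, dotted lines mark the fold minimum, and the points of Saa2 and Lox lie at the top, Lox with an HC11-mutB1 level under the expression minimum.

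Across probesets, r was 0.993 to 0.995 between arrays of the same strain and 0.975 to 0.979 between arrays of HC11-mutB1 and HC11-ΔSAP. Array medians were between 4.53 and 4.60. Exactly the same value occurred on 2 or more of the 6 arrays in 24.8% of the expressed probesets, which can make a spread too small, and 11 of the genes that passed as lower and 22 that passed as higher were among them. Among the 50 probesets just inside the expression minimum (means from 4.00 to 4.01) differences ran from -1.19 to 1.68, and among the 50 just outside it (3.99 to 4.00) from -0.71 to 0.33. Two-sided exact permutation of 3 against 3 arrays cannot give a p under 0.1, so calls rest on limma.

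Genes of cell division made the largest group with 1 direction. A cell that divides copies its DNA with the MCM helicase and its polymerases, condenses the chromosomes, attaches them to the spindle at kinetochores and separates the daughters by cytokinesis, and the transcripts for most of these steps are made in bursts by factors acting at E2F sites before replication and at CHR elements before mitosis. Over the lists for kinetochores, mitotic kinases, kinesins and cytokinesis, replication and homologous recombination, 176 genes were expressed. Of these, 148 were lower in HC11-ΔSAP cells with no fold minimum, 111 of them at least 2-fold, and 0 were higher. Over all expressed genes 8.29% were lower and 7.56% higher with no fold minimum, and 2.25% were lower at 2-fold. The 111 genes are 37.5% of all genes that passed as lower. Their median fold was 3.0 and the largest, that of Ccna2, 5.85. The median log2 difference over the 176 genes was -1.28, against 0.02 for all expressed genes. From RNA of whole cultures, fewer dividing cells and less of these transcripts in each cell cannot be told apart.

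Promoter windows are shown for genes of this group because letters of the CHR and E2F motifs were common there. Kif11, Mki67 and Mcm6 represent mitosis and replication, and Tnc, a matrix gene with a larger fall than these, stands beside them. Each is the RefSeq window of 300 bases around a transcript start in GRCm38.p6, printed 5′ to 3′ on the strand of the gene. Capitals mark matches on either strand, which may overlap. The CHR element was searched as TTTGAA and, in its other form, as TTTAAA. The CCAAT box was searched by the letters of its name and the E2F site as TTTGGCGC and the forms TTTCCCGC, then TTTGCCGC, and last TTTCGCGC. Kif11 lies on the plus strand and the others on the minus strand.
Kif11, chr19:37376132-37376431: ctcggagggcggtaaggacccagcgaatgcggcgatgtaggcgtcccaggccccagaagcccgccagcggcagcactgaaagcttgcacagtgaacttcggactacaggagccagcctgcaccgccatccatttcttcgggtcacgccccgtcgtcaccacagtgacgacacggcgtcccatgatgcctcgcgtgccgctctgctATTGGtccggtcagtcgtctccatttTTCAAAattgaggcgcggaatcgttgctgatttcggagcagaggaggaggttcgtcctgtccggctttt
Mki67, chr7:135716330-135716629: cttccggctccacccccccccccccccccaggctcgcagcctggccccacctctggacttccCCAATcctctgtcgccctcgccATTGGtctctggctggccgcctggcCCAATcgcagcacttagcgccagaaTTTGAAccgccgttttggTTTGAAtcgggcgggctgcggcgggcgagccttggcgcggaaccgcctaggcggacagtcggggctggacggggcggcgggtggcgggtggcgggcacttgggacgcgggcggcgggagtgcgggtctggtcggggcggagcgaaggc
Mcm6, chr1:128359656-128359955: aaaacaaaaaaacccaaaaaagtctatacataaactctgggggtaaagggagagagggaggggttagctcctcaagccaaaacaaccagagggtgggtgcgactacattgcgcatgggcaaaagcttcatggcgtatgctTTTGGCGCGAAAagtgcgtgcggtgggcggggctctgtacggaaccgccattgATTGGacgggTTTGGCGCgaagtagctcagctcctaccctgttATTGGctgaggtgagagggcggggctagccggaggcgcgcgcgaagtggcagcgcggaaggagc
Tnc, chr4:64046966-64047265: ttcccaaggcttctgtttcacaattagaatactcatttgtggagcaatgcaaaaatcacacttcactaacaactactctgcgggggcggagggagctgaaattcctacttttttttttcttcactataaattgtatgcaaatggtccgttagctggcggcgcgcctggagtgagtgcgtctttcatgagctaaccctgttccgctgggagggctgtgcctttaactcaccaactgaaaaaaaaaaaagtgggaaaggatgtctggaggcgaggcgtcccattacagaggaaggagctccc

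The Kif11 window held 1 CHR and 1 CCAAT match, that of Mki67 2 CHR and 3 CCAAT matches, and that of Mcm6 2 CCAAT and 3 E2F matches. Neither this window of Tnc nor a second one, which overlaps it, held letters of CHR, CCAAT, E2F, AP-1 (TGACTCA) or the CArG box. Over the mitosis genes that passed as lower, 73.6% of 72 windows had a CHR match and 69.4% a CCAAT match, against 27.6% and 37.4% of all 32851 windows of the table and 18.7% and 37.2% of those of expressed genes. Over the replication and repair genes that passed as lower, 44.1% of 34 windows had an E2F match, against 2.26% of all windows and 3.81% of those of expressed genes. The other genes that passed as lower had CHR letters in 28.5% and E2F letters in 4.64% of 151 windows. In the genes that passed as higher, 18.2% of 187 windows had CHR, 38.0% CCAAT and 2.67% E2F letters. AP-1 letters were in 7.49% of the windows of the higher and 3.50% of those of the lower genes (all windows 5.20%, expressed genes 3.94%), and the CArG box in 2.67% and 2.33% (all windows 1.63%, expressed genes 1.33%). A match of letters is a description and not a binding site. Listed genes that did not pass were not counted apart, so the shares may be those of the lists as a whole. The windows matched 231 of the 296 lower and 147 of the 207 higher genes.

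**Figure D2:**
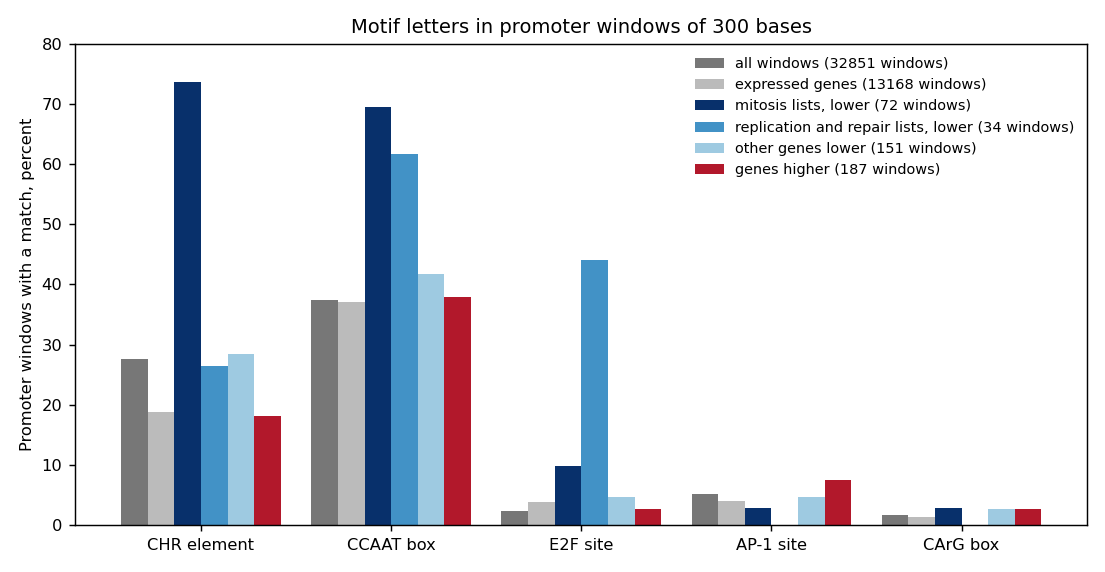
Share of promoter windows of 300 bases that hold letters of each motif, in percent, for all windows of the table, expressed genes and the groups that passed. CHR letters stand out in the windows of mitosis genes (73.6%) and E2F letters in those of replication and repair genes (44.1%).

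Among kinesins, cytokinesis proteins and chromosome structure, 33 of 34 expressed genes were lower with no fold minimum and 32 at least 2-fold, with a median log2 difference of -1.80. Kif11, the motor that pushes the spindle poles apart, read 8.02, 8.18 and 8.11 in HC11-mutB1 and 5.65, 5.41 and 5.80 in HC11-ΔSAP. The strains lay far apart, with HC11-FL between them at 7.20 ± 0.12 (SD, n = 3). Its log2 difference was -2.49 (SE 0.107, 5.60-fold, limma adjusted p = 0.00015). Mki67, a coat protein of mitotic chromosomes used as a proliferation marker, read 8.39, 8.55 and 8.68 against 6.20, 5.84 and 6.18. That is a 5.54-fold difference (limma adjusted p = 0.00024) with no overlap. Top2a, which untangles DNA, fell 5.23-fold. Anln, the scaffold of the contractile ring, lay at 9.06 ± 0.06 against 6.89 ± 0.07 (SD, n = 3 arrays each), a 4.51-fold difference (limma adjusted p = 3.9e-05).

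Of the mitotic kinases, cyclins and subunits of the anaphase-promoting complex, 25 of 29 were lower, 22 of them at least 2-fold, with a median of -1.46. Ccna2, the cyclin of S phase and early mitosis, read 9.68, 9.89 and 9.67 in HC11-mutB1 and 7.26, 7.09 and 7.26 in HC11-ΔSAP. The lowest HC11-mutB1 array was well above the highest HC11-ΔSAP array, and HC11-FL lay at 8.79 ± 0.03 (SD, n = 3). The log2 difference was -2.55 (SE 0.085, limma adjusted p = 8e-05). Mastl, the kinase that keeps mitotic phosphatases shut, fell 4.99-fold, and Aurkb, the kinase that corrects chromosome attachment, 4.14-fold. Of the 37 kinetochore and spindle checkpoint genes 29 were lower, 22 at least 2-fold, with a median of -1.20. Cenpe, a motor at the kinetochore, fell 5.15-fold, Sgo2a, a guardian of cohesin at the centromere, 4.68-fold and the checkpoint kinase Bub1 4.65-fold.

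In DNA replication 39 of 50 genes were lower and 20 at least 2-fold, with a median of -0.91, the mildest of the lists of this group. Mcm6, a subunit of the replicative helicase, read 8.09, 8.08 and 8.02 against 6.13, 6.11 and 6.34. The arrays did not overlap and the difference was 3.65-fold (limma adjusted p = 0.00011), while HC11-FL lay at 8.34 ± 0.06 (SD, n = 3), above both. Pclaf, which binds the sliding clamp PCNA, fell 4.10-fold and Rrm2, the small subunit of ribonucleotide reductase, 3.87-fold. Of the genes for repair by homologous recombination 22 of 26 were lower, 15 of them at least 2-fold, with a median of -1.08. Among them Brca1, a repair protein that acts at broken DNA ends, fell 3.33-fold and Chek1, the checkpoint kinase of stalled forks, 3.05-fold. Neil3, a DNA glycosylase, fell 3.70-fold, but did not pass in 4 of the 6 limma fits with 1 array left out (highest adjusted p = 0.0145).

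Of 31 G1 cyclins, E2F factors and CDK inhibitors, which act upstream of these genes, 12 were lower (38.7%, against 8.29% of all genes), 8 of them at least 2-fold. In the same list 2 were higher (6.45%, against 7.56%), and the median was -0.30. Ccnd2, a D cyclin, read 7.06, 7.17 and 7.16 against 5.68, 5.62 and 5.82, a 2.68-fold difference (limma adjusted p = 0.00018). E2f8, a repressor of the E2F family, fell 3.22-fold and Ccne2, an E cyclin, 2.59-fold to a mean of 3.53, under the expression minimum, but each missed the threshold in 5 of the 6 limma fits with 1 array left out (highest adjusted p = 0.0167 and 0.0379). Histone genes of chromosome 13 formed 2 runs of 3 neighbours that passed as lower, H2bc14, H2ac15 and H1f5, and H2bc3, H2ac4 and H1f1, with folds from 2.48 to 3.99. Histone genes are near-identical copies and probes may read more than 1, so the single values are uncertain. H2ac4 missed the threshold in 5 and H2bc3 in 3 of the 6 limma fits with 1 array left out (without HC11-mutB1 replicate 1 or 2 or HC11-ΔSAP replicate 2 for H2bc3), with highest adjusted p of 0.0222 and 0.0143.

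**Figure D3:**
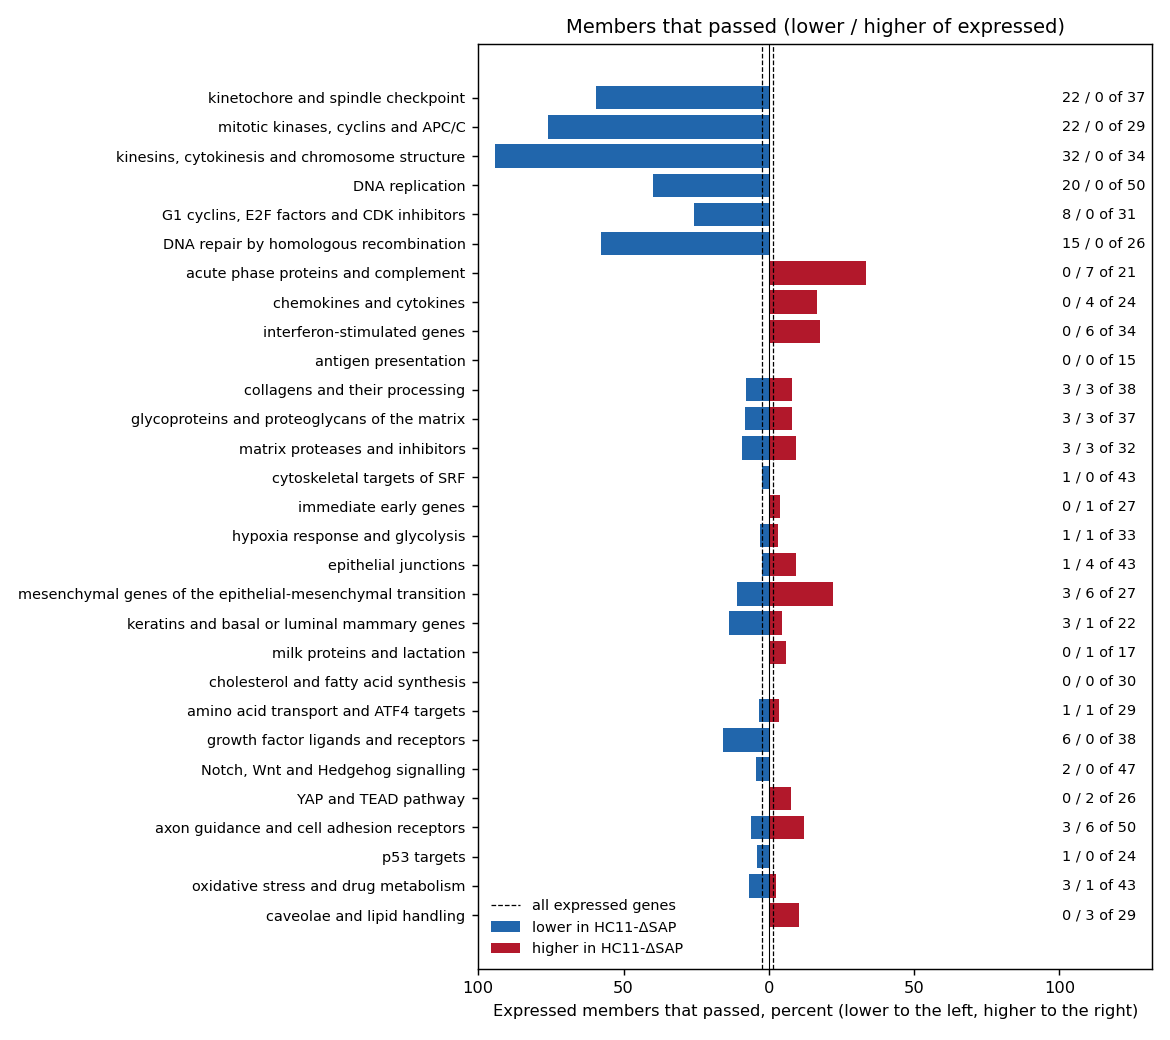
Share of the expressed members of each gene list that passed as lower (left, blue) or higher (right, red) in HC11-ΔSAP cells, in percent, with the counts at the right. Dashed lines show the shares over all expressed genes, 2.25% lower and 1.58% higher. The 6 lists at the top reach furthest to the left. Acute phase proteins (33.3%), mesenchymal genes (22.2%), interferon-stimulated genes (17.6%), chemokines (16.7%), axon guidance (12%) and caveolae (10.3%) reach furthest to the right.

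Higher genes included those of acute phase proteins, secreted proteins that epithelia and liver make in inflammation. Of 21 expressed acute phase and complement genes 11 were higher (52.4%, against 7.56% of all genes), 7 of them at least 2-fold. In this list 1 was lower (4.76%, against 8.29%), and the median log2 difference was 0.56. Saa2, a serum amyloid A, read 5.07, 5.16 and 5.11 in HC11-mutB1 and 9.88, 10.33 and 10.21 in HC11-ΔSAP. The difference was 5.03 on the log2 scale (SE 0.120, 32.6-fold, limma adjusted p = 3.9e-05), and HC11-FL lay between at 8.66 ± 0.04 (SD, n = 3). Saa1 read 2.94, 3.01 and 3.17 against 6.46, 6.98 and 7.06. Saa1 and Saa2 are near-identical copies and may share probes. Saa3, a more distant relative made outside the liver, read 9.19, 9.38 and 9.40 against 12.27, 12.39 and 12.39, and here HC11-FL, at 12.68 ± 0.07 (SD, n = 3), was near HC11-ΔSAP. The 3 genes are neighbours on chromosome 7 and form 1 run. Hp, haptoglobin, which binds free haemoglobin, read 7.04, 6.75 and 7.13 against 10.89, 10.89 and 10.83, a 14.9-fold difference (limma adjusted p = 3.9e-05), with HC11-FL at 10.99 ± 0.03 (SD, n = 3).

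Of 24 chemokines and cytokines 8 were higher (33.3%, against 7.56% of all genes), 4 of them at least 2-fold. In this list 1 was lower (4.17%, against 8.29%), and the median was 0.41. Ccl5, which attracts T cells, read 7.41, 7.40 and 7.50 against 9.22, 9.50 and 9.44, a 3.88-fold difference (limma adjusted p = 0.00015). Its HC11-FL level was 8.97 ± 0.03 (SD, n = 3), nearer HC11-ΔSAP. The neutrophil chemokines Cxcl1 and Cxcl5 were 2.85-fold and 2.41-fold higher. HC11-FL lay at 9.97 for Cxcl1, near HC11-mutB1 (9.75), and at 12.21 for Cxcl5, near HC11-ΔSAP (12.33). Ccl3, a macrophage chemokine outside this list's members, was higher too. It read 8.22, 8.45 and 8.45 against 11.59, 11.69 and 11.72 (9.81-fold, limma adjusted p = 3.9e-05), with HC11-FL at 8.32 ± 0.06 (SD, n = 3), level with HC11-mutB1. On chromosome 11 it is followed by Wfdc17, Wfdc18 and Wfdc21, small secreted proteins with a whey acidic protein fold, which were 6.64-fold, 3.02-fold and 4.29-fold higher. Of 34 interferon-stimulated genes 12 were higher (35.3%), 6 of them at least 2-fold, and 1 was lower (2.94%), with a median of 0.39. Bst2, which tethers budding virus to the membrane, was 2.83-fold higher, and Ifit1, a sensor of viral RNA, 4.93-fold. HC11-FL lay at 9.17 for Bst2 (7.86 in HC11-mutB1 and 9.36 in HC11-ΔSAP) and at 8.24 for Ifit1 (5.84 and 8.14). In limma Ifit1 was at or just over the threshold without HC11-mutB1 replicate 2 or HC11-ΔSAP replicate 2 or 3 (highest adjusted p = 0.0109). Oasl2, of the OAS family of antiviral proteins, was 2.34-fold higher, with HC11-FL between the strains at 6.47. It missed the threshold in 5 of the 6 limma fits with 1 array left out (highest adjusted p = 0.0221). Of 15 antigen presentation genes 2 were higher (13.3%) and 1 lower (6.67%), none at least 2-fold.

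Markers of other cells were read beside these genes. The summed level of the 6 leukocyte markers was 7.92 to 7.95 in HC11-mutB1 and 8.48 to 8.51 in HC11-ΔSAP cells (log2 of the sum). It is carried by Cd68, a lysosomal protein that other cells also express (7.35 against 8.14), while Ptprc, the common leukocyte antigen, lay at 3.39 and 3.54, Adgre1 at 3.13 and 3.14 and Itgam at 2.99 and 2.92, all under the expression minimum, and Csf1r at 4.86 and 4.57. Endothelial sums were 6.14 to 6.18 and 6.16 to 6.18. The summed epithelial markers were 13.1 in HC11-mutB1 and 12.7 in HC11-ΔSAP. Of the 7, Krt8, Krt18, Krt5, Krt14, Cdh1 and Epcam were expressed, and Csn2, the milk protein β-casein, lay at 2.97 and 3.04.

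**Figure D4:**
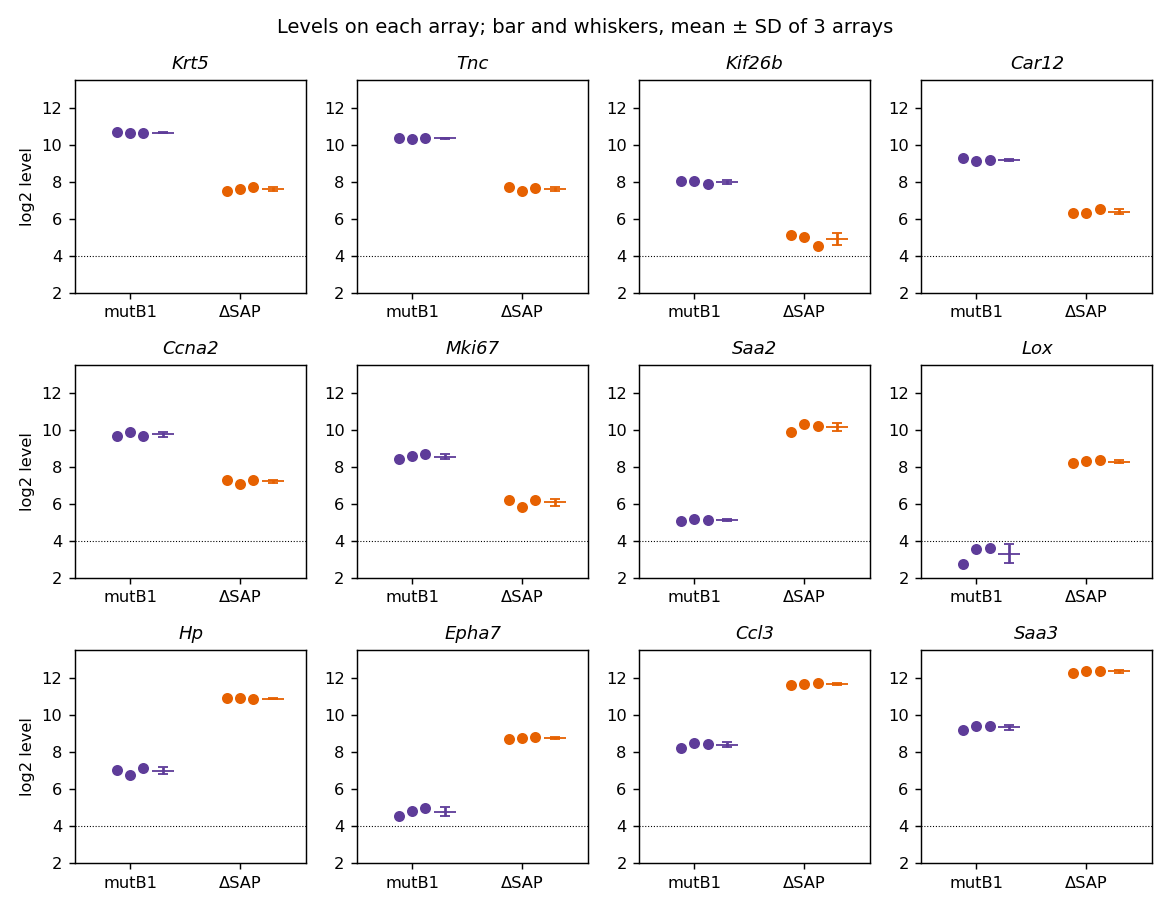
Log2 levels of 12 genes on each of the 6 arrays, with the mean ± SD of 3 arrays at the right of each strain and a dotted line at the expression minimum of 4. In every panel the 3 arrays of one strain lie apart from the 3 of the other, and Lox is under the line on all HC11-mutB1 arrays.

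With 1 single-gene probeset per gene, the 6 largest falls in HC11-ΔSAP cells were in genes outside the division lists. Over all probesets that passed, the largest fall was 11.1-fold. Kif26b, an atypical kinesin, read 8.01, 8.03 and 7.88 in HC11-mutB1 and 5.13, 5.01 and 4.53 in HC11-ΔSAP (8.49-fold, limma adjusted p = 0.00027). Krt5, the keratin of basal mammary cells, read 10.68, 10.60 and 10.64 against 7.49, 7.57 and 7.70, an 8.30-fold difference (SE 0.064 on the log2 scale, limma adjusted p = 3.4e-05), with HC11-FL at 9.49 ± 0.01 (SD, n = 3). Other keratins differed less. Of 22 keratins and basal or luminal genes 7 were lower (31.8%, against 8.29% of all genes), 3 at least 2-fold, and 2 were higher (9.09%, against 7.56%). Krt16, a keratin of stressed epithelium, fell 2.80-fold, Krt14, the partner of Krt5, 1.82-fold and Krt18 1.63-fold, while Krt8, the partner of Krt18, was 1.31-fold higher. Nrg1, a ligand of the ERBB receptors, read 7.65, 7.65 and 7.38 against 5.92, 5.90 and 6.08 (3.02-fold lower), with HC11-FL at 5.92, near HC11-ΔSAP.

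Matrix genes went both ways. Tnc, tenascin-C, a glycoprotein of remodelled matrix, read 10.34, 10.30 and 10.37 in HC11-mutB1 and 7.72, 7.50 and 7.65 in HC11-ΔSAP. The strains were far apart (log2 difference -2.72, SE 0.065, 6.57-fold, limma adjusted p = 3.9e-05) and HC11-FL lay between, at 9.24 ± 0.02 (SD, n = 3). Ccn4, a secreted matrix protein, fell 3.87-fold. Against these, Fbln5, which organises elastic fibres, read 6.62, 6.59 and 6.62 against 8.96, 9.05 and 9.06, and Dcn, decorin, a proteoglycan of fibroblasts, 4.50, 4.52 and 4.55 against 6.81, 6.81 and 6.84. Among 37 glycoproteins and proteoglycans 6 were lower (16.2%, against 8.29% of all genes) and 7 higher (18.9%, against 7.56%), 3 each at least 2-fold. Beside Dcn, the fibroblast marker Lum lay at 2.46 and 2.49, Col1a1, Col1a2 and Col3a1 differed by at most 0.02, and Pdgfra was lower (7.38 against 6.45).

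Lox, the enzyme that cross-links collagen and elastin, read 2.75, 3.55 and 3.63 in HC11-mutB1 and 8.20, 8.30 and 8.34 in HC11-ΔSAP, a measured log2 difference of 4.97 (SE 0.242, limma adjusted p = 0.00021). The HC11-mutB1 arrays were under the expression minimum, so the size depends on the background there, as it does for other genes with 1 strain under it. HC11-FL was higher than both, at 10.48 ± 0.08 (SD, n = 3). Col11a1, a fibrillar collagen, fell 4.91-fold and Col17a1, the collagen of hemidesmosomes, 4.44-fold. Among 38 collagens and their enzymes 7 were lower (18.4%, against 8.29% of all genes) and 3 higher (7.89%, against 7.56%). Of 32 proteases and inhibitors 3 were lower (9.4%) and 9 higher (28.1%), 3 each at least 2-fold. Adam12, a membrane protease, fell 4.97-fold and Adamts16, a secreted one, 2.74-fold, while Plat, tissue plasminogen activator, was 3.26-fold and Mmp3, stromelysin, 4.35-fold higher, the latter from an HC11-mutB1 mean of 3.65, under the expression minimum. In limma, Mmp3 missed the threshold in 5 of the 6 fits with 1 array left out (highest adjusted p = 0.0185) and Adamts16 without HC11-mutB1 replicate 2 (adjusted p = 0.011). Mmp12, macrophage elastase, was 1.47-fold higher, with HC11-FL far above both mutants at 11.78 ± 0.06 (SD, n = 3). For Mmp3 too HC11-FL lay far above both, at 9.74 ± 0.07 (SD, n = 3), against 3.65 in HC11-mutB1 and 5.77 in HC11-ΔSAP.

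Cytoskeletal genes listed as targets of SRF, whose windows were not searched as a list for the CArG box, showed smaller differences. Of 43 expressed genes 10 were lower (23.3%, against 8.29% of all genes) and 3 higher (6.98%, against 7.56%). Of these 1 passed the fold minimum, and the median was -0.14. Csrp2, a LIM protein of the actin cytoskeleton, read 9.57, 9.44 and 9.44 in HC11-mutB1 and 7.37, 7.39 and 7.33 in HC11-ΔSAP (4.35-fold, limma adjusted p = 3.9e-05). Actn1, an actin cross-linker, fell 1.66-fold. Acta2, smooth muscle actin, read 6.51, 6.44 and 6.46 against 6.81, 6.76 and 6.80, a small rise of 0.32 (limma adjusted p = 0.0058), with HC11-FL at 7.54 ± 0.09 (SD, n = 3). Ankrd1, an ankyrin repeat protein first known from muscle, was 1.66-fold higher. Of 27 immediate early genes 3 were lower (11.1%) and 2 higher (7.41%), near the shares of 8.29% and 7.56% over all genes, with Dusp1, a phosphatase of MAP kinases, 2.21-fold higher and Dusp4 1.85-fold lower.

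Further genes of the matrix and surface were lower in HC11-ΔSAP cells, several at a level close to that of HC11-FL. Acan, aggrecan of cartilage matrix, read 8.56, 8.38 and 8.41 against 5.69 on each of the HC11-ΔSAP arrays, with HC11-FL at 6.01 ± 0.09 (SD, n = 3). Scube3, a secreted protein with EGF-like repeats, lay at 7.74 and 5.23, with HC11-FL at 5.33. Ncam1, a neural adhesion molecule, lay at 7.79 and 5.32, with HC11-FL at 5.41. Fam20a (7.91 and 5.36), Lratd1 (7.91 and 5.24) and Igsf10 (6.21 and 3.77) had HC11-FL means of 5.02, 4.93 and 3.73. Cd34, a sialomucin of progenitors and vessels, lay at 6.38 and 3.91, and here HC11-FL, at 6.0, was nearer HC11-mutB1. Car12, a membrane carbonic anhydrase, read 9.25, 9.13 and 9.18 against 6.29, 6.28 and 6.54, with HC11-FL at 8.57. AU018091, a gene without an assigned role here, lay at 9.48 and 7.05. Nox4, an oxidase that makes hydrogen peroxide, lay at 5.37 and 4.13 with HC11-FL at 5.86.

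Further rises were also spread over roles. Epha7, an ephrin receptor, read 4.51, 4.80 and 4.98 in HC11-mutB1 and 8.69, 8.76 and 8.80 in HC11-ΔSAP (15.9-fold, limma adjusted p = 6.6e-05), with HC11-FL at 5.54. Plcb4, a phospholipase C that answers to G proteins, read 6.19, 6.17 and 5.93 against 9.37, 9.53 and 9.48, with HC11-FL at 9.05. Glul, glutamine synthetase, read 3.31, 3.49 and 3.73 against 6.83, 6.82 and 6.96, with HC11-FL above both at 8.02. Hsd17b11 and Dhrs9, dehydrogenases of steroids and retinoids, were 7.87-fold and 7.21-fold higher. Ndst4, an enzyme of heparan sulphate, and Pros1, the anticoagulant protein S, lay under the minimum in HC11-mutB1 cells (3.17 and 3.79) and at 5.84 and 6.38 in HC11-ΔSAP cells. Plag1, a zinc finger factor, lay at 4.85 and 7.42. Of 50 axon guidance and adhesion receptors 14 were higher (28%, against 7.56% of all genes) and 10 lower (20%, against 8.29%), with Sema5a 2.79-fold higher.

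Genes of epithelial and mesenchymal state did not share a direction. Of 27 mesenchymal genes 8 were lower and 8 higher (29.6% each, against 8.29% and 7.56% of all genes). The 9 that reached 2-fold were 3 lower and 6 higher. Zeb2, a repressor of E-cadherin, read 4.30, 4.31 and 4.28 against 6.72, 6.80 and 6.78 (5.52-fold), and Gas6, a ligand of the AXL receptor, was 5.21-fold higher. HC11-FL lay above both strains for Zeb2, at 7.19. For Gas6 HC11-FL lay at 7.06, between the strains and nearer HC11-mutB1. Of 43 epithelial junction genes 8 were higher (18.6%) and 5 lower (11.6%), 4 and 1 of them at least 2-fold. Ocln, occludin of tight junctions, was 3.17-fold higher but missed the threshold in 4 of the 6 limma fits with 1 array left out (highest adjusted p = 0.0169). Ehf, an epithelial ETS factor, was 2.43-fold higher and Pkp1, plakophilin of desmosomes, 2.46-fold lower. HC11-FL lay near HC11-ΔSAP for Ocln, at 6.14 (4.62 in HC11-mutB1 and 6.28 in HC11-ΔSAP). The same held for Pkp1, at 8.69 (10.04 and 8.75). For Ehf HC11-FL lay above both strains, at 8.45 (6.81 and 8.09). Cdh1, E-cadherin, was at 10.76 and 11.01 (limma adjusted p = 0.012), with HC11-FL under both, at 10.64.

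Among growth factors and receptors 11 of 38 were lower (28.9%, against 8.29% of all genes) and 6 higher (15.8%, against 7.56%). This list had 6 genes that reached 2-fold, all of them lower. Inhbb, an activin subunit, fell 3.50-fold and Igfbp4, which binds insulin-like growth factors, 2.70-fold. HC11-FL lay at 7.12 for Inhbb (7.42 in HC11-mutB1 and 5.61 in HC11-ΔSAP). For Igfbp4 it lay at 6.07, under both strains (8.92 and 7.49). In the Notch, Wnt and Hedgehog list 7 of 47 were lower (14.9%) and 0 higher. The Notch ligand Jag1 read 8.74, 8.74 and 8.88 against 7.19, 7.23 and 7.23, and the Notch target Hes1 7.95, 7.85 and 7.90 against 5.84, 6.06 and 6.15. HC11-FL was under both strains for Jag1, at 6.68, and between them for Hes1, at 6.83. Of 26 YAP and TEAD genes 3 were lower (11.5%, against 8.29% of all genes) and 4 higher (15.4%, against 7.56%), with Ccn2, connective tissue growth factor, 2.35-fold and Birc3, an inhibitor of apoptosis, 2.44-fold higher. Of 29 genes of caveolae and lipid handling 11 were higher (37.9%) and 5 lower (17.2%). Cavin2, a coat protein of caveolae, read 3.53, 3.42 and 3.20, under the expression minimum, against the same repeated value of 5.85 on each HC11-ΔSAP array. Its HC11-FL level was above both, at 7.46 ± 0.07 (SD, n = 3). Fabp4, a fatty acid carrier, was 4.95-fold higher, and Abca1, a cholesterol exporter, 2.34-fold. Abca1 missed the limma threshold without HC11-mutB1 replicate 3 (adjusted p = 0.0101) or HC11-ΔSAP replicate 2 (0.0117). Beside Fabp4, a gene of fat cells too, the adipocyte hormone Adipoq lay at 2.65 and 2.82, under the expression minimum.

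Over all genes 8.29% were lower and 7.56% higher with no fold minimum, and the shares of the remaining lists are given for comparison. Of 33 hypoxia and glycolysis genes 8 were lower (24.2%) and 5 higher (15.2%), with Car12 and Eno2, an enolase, the ones past the fold minimum, though Eno2 missed the threshold in all 6 limma fits with 1 array left out (highest adjusted p = 0.0258). Of 43 genes of oxidative stress and drug metabolism 8 were lower (18.6%) and 5 higher (11.6%), with the glutathione transferases Gsta4 3.58-fold and Gstt1 2.44-fold lower and Abcb1a, a drug pump, 2.92-fold higher. Of 17 milk and lactation genes 3 were lower (17.6%) and 4 higher (23.5%). Of 24 p53 targets 4 were lower (16.7%) and 3 higher (12.5%). Nearer the shares over all genes were those of 29 genes of amino acid transport, with 3 lower (10.3%) and 2 higher (6.90%). Of 30 genes of sterol and fatty acid synthesis 2 were lower (6.67%) and 0 higher. In these 4 lists Wfdc18, Plk2, Slc15a2 and Glul passed the fold minimum.

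Differences also followed chromosomes. Chromosomes 3, 12, 14 and X were set apart after their values were seen, so the shares outside them leave out shifted chromosomes. The median log2 difference of the 453 expressed genes of chromosome 12 was -0.23, and 26.5% of them were lower with no fold minimum, against 6.98% of the genes outside chromosomes 3, 12, 14 and X. On chromosome 14 the median of 441 genes was 0.22 and 25.2% were higher (6.87% on the other chromosomes). On chromosome X the median of 353 genes was -0.15 and 17.3% were lower. In each of these chromosomes all 3 arrays of one strain lay on one side of all 3 of the other. The same held, with medians only from -0.03 to 0.08, for chromosomes 1, 2, 3, 5, 8, 9, 15, 16, 17 and 18. The largest of these was that of chromosome 5, where 11.5% of the genes were higher. Beside HC11-FL, chromosome 12 had a median of -0.01 in HC11-mutB1 and -0.22 in HC11-ΔSAP, chromosome 14 of -0.22 and -0.02, and chromosome X of 0.14 and -0.02, where both values rest on the same HC11-FL arrays. DNA copy number was not measured, and what these shifts come from was not tested.

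Chromosome 3 was split, with a median of 0.01 over 597 genes but 109 of them lower (18.3%) and 81 higher. In windows of 30 to 33 neighbouring genes, the one from Ndufb5 to Jade1 had a median of -0.35, that from Sh3d19 to Slc25a44 of 0.35, that from Zfp697 to Slc16a1 of -0.40 and that from Ccn1 to Wls of -0.44. Of 427 windows over all chromosomes 22 had a median under -0.2 and 15 over 0.2, and 19 and 12 of these lay on chromosomes 3, 12, 14 and X. Windows of the other chromosomes had medians from -0.24, on chromosome 2, to 0.25, on chromosome 16. Chromosome 2 also changed sign along its length, at smaller sizes. Its windows up to the one ending at Ino80 were nearly all negative. The later ones were nearly all positive, up to 0.17 from Gss to Ndrg3. As chromosomes 3, 12, 14 and X were chosen by their values, larger shares of windows and calls there are no separate result. They hold 14.1% of the expressed genes, 25.1% of the genes called with no fold minimum and 15.9% of those that reached 2-fold. The longest runs of neighbours called the same way were on them, with 7 genes from Psme1 to Tm9sf1 higher on chromosome 14 and 6 from Polr3c to Chd1l lower on chromosome 3. Without these chromosomes 248 genes passed as lower and 175 as higher.

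**Figure D5:**
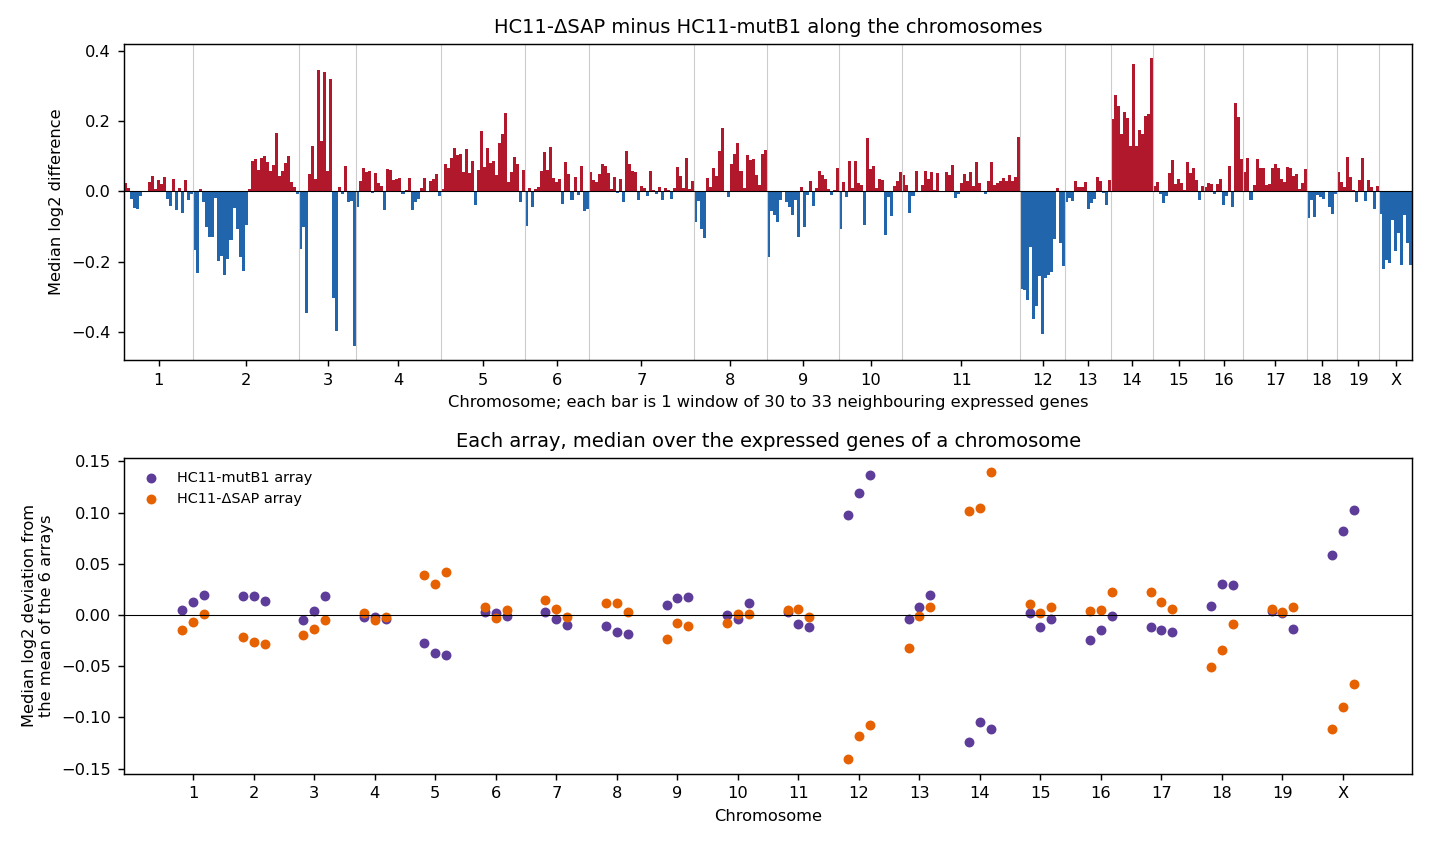
Top, median log2 difference (HC11-ΔSAP minus HC11-mutB1) in 427 windows of 30 to 33 neighbouring expressed genes in chromosome order. Bottom, the median deviation of each array from the mean of the 6 arrays (log2) for each chromosome. Chromosomes 12, 14 and X separate the 3 arrays of each strain most there. In the top panel chromosome 3 changes sign along its length, as chromosome 2 does at smaller sizes.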

How the data were processed

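RNA of the HC11 strains was hybridised to Affymetrix mouse gene 1.0 ST arrays. The authors deposited log2 values normalised together over all 9 arrays by RMA, which corrects background, makes the arrays share 1 distribution and summarises the probes of a probeset. R 2.10.0 and affy are given in the submitters' processing notes. RMA removes differences in overall signal, so levels are relative to the array. Scans and scan dates were not used here. Depth does not apply to arrays, and the number of arrays (3 per strain) limits precision.

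Two-group fits on the 6 arrays used limma 3.58.1 in R 4.3.3, where the moderated test has 4 residual degrees of freedom and a prior worth 1.70. The Benjamini-Hochberg adjustment ran over the whole table of 34760 probesets. As in the study's methods, a call needed an adjusted p not above 0.01, a fold not under 2 and a mean log2 level not under 4. The fit was tested on simulated data.

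The array annotation gives 1 gene symbol to 21640 probesets, several to 1321 and none to 11799. For each gene, the single-gene probeset with the highest mean over the 6 arrays was used. Symbols were updated by gene ID through the RefSeq table of GRCm38.p6, which also gave gene order and promoter windows, and 21553 probesets matched. The 29 gene lists hold 1136 genes, of which 925 were expressed. The members, lists and motifs were chosen with earlier results of these data known, and the E2F motif was added last. Counts "with no fold minimum" use the adjusted p alone.

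Genes are named by rule: in each direction the 15 of largest fold, the 3 list members with the largest change among those past the adjusted p, the Mkl1 family and Srf, the genes of the study's main table, Acta2, cell type markers and the longest runs of neighbours. The first and last genes of windows were named after their values were seen. Some genes of the rule with folds under 2 stand only in the counts of their lists or markers, and a few are not reported here. Alternatives covered the fit, the filters, scaling, the replicate number as a block, repeated values, chromosomes and each array left out in turn.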

Additional observations from a re-analysis of the deposited data

How the results depend on the processing

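Calls depended mainly on the fold minimum. With 343 probesets lower and 230 higher at 2-fold, a 1.5-fold minimum gave 754 and 531, no minimum 1326 and 1119, and a test against 2-fold itself (treat) 83 and 65. For genes (296 and 207) the same settings gave 622 and 475, 1088 and 992, and 71 and 58. For members of the lists (150 and 52) they gave 221 and 88, 271 and 128, and 41 and 19. Leaving out 1 array gave 272 to 313 probesets lower and 183 to 211 higher, 234 to 276 genes lower and 165 to 192 higher, and 125 to 142 list members lower and 43 to 48 higher. Of 130 named genes that were expressed, 95 passed, and 83 of these passed in every fit with 1 array left out.

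Replicate numbers did not pair the arrays (correlations of same-numbered deviations 0.11, -0.04 and 0.06). With the number as a block, 230 probesets were lower and 166 higher, 202 and 150 genes, and 395 of these 396 probesets passed without it. None of the 95 named genes that passed changed direction under the alternatives run. Values near 0 did change sign under some of them: the medians of the Notch, collagen, glycoprotein and epithelial junction lists and of chromosome 3, and genes that did not pass, such as Mkl2 and Col1a1. The settings added after seeing the data left out chromosomes 3, 12, 14 and X or took off the window median, and the latter gave 285 genes lower and 193 higher. Arrays give no depth. The number of arrays, the repeated values and the 1 strain per construct limit these results.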

Other observations

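Of the genes that passed, 146 lower and 155 higher in HC11-ΔSAP cells were in none of the 29 lists. Those named here were chosen after their values were seen. Among the lower genes, Dsg3, a desmosomal cadherin, read 9.40, 9.38 and 9.41 on the HC11-mutB1 arrays and 7.47, 7.63 and 7.48 on the HC11-ΔSAP arrays (3.65-fold, limma adjusted p = 6.1e-05). Sfn, an epithelial 14-3-3 protein, read 9.18, 9.05 and 9.06 against 7.20, 7.25 and 7.06, and Lgals7, a galectin of keratinocytes, 8.13, 8.04 and 7.83 against 6.37, 6.04 and 6.27. In none of these did the strains overlap. Bdkrb1, a receptor of kinins, was 4.51-fold lower and Sox11, a factor of development, 4.56-fold lower.

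Among the higher genes, Acod1, which makes itaconate and is known from activated macrophages, read 7.82, 8.05 and 8.10 against 10.16, 10.03 and 10.14 (4.34-fold, limma adjusted p = 0.00012). Ifnar2, a chain of the type I interferon receptor, was 3.70-fold higher. Crabp2, a carrier of retinoic acid, read 7.57, 7.62 and 7.61 against 9.79, 9.73 and 9.78. Mme, a membrane peptidase also found on mammary myoepithelial cells, read 10.10, 10.15 and 10.15 against 11.87, 12.02 and 12.05, and Angpt1, a ligand of the endothelial receptor TEK, 7.94, 7.90 and 8.07 against 10.21, 10.24 and 10.25. Tek itself lay at 3.32 and 3.35, under the expression minimum.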
